A study of Mus musculus with 6 samples.

Results

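The genes of G1 entry described here are the D-type cyclins Ccnd1, Ccnd2 and Ccnd3, their kinases Cdk4 and Cdk6, the CDK inhibitors Cdkn1a, Cdkn1b, Cdkn2c and Cdkn2d, and the atypical cyclin Ccng2. These 10 genes were chosen by name for their known function, with earlier results of these data known. They were looked up by Ensembl identifier and are 10 of 24965 genes in the table. RNA-seq was performed on donor cells sorted from the bone marrow of recipient mice at 6 h post-BMT (bone marrow transplantation), with 3 WT and 3 Hemgn-/- libraries. Donors were C57BL/6 CD45.2 mice, either WT littermates or mice that lack Hemgn in all cells after zinc finger nuclease editing. All recipients, of both groups, were CD45.1 mice conditioned with a split irradiation of 9 Gy (4.5 Gy and 4.5 Gy), and the study's methods give mice of 8 to 10 weeks of age. The labels give the Hemgn deletion for the transplanted bone marrow only, not for the recipients. The values are FPKM (fragments counted on a gene, scaled by its exon length and by the library's total), and the comparison asks how these genes differ between Hemgn-/- and WT donor cells.

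D-type cyclins are made in response to growth signals, bind CDK4 or CDK6 and start the phosphorylation of the retinoblastoma protein, which releases E2F factors and lets a cell pass from G1 into S phase. The INK4 inhibitors bind CDK4 and CDK6 directly and keep cyclins away from them, whereas the Cip/Kip inhibitors bind whole cyclin-CDK complexes and mainly restrain CDK2. Hematopoietic stem cells are largely quiescent, and these inhibitors are among the genes known to hold them so.

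The D cyclins are closely related proteins that share a short retinoblastoma-binding motif near their first residue. The first 60 coding bases of each, read from the GENCODE M21 transcripts of GRCm38, are shown because they hold this shared motif and let the 3 genes, 2 of which were called higher, be compared letter by letter. Capitals mark the codons of the motif, leucine, any residue, cysteine, any residue, glutamate.
Ccnd1: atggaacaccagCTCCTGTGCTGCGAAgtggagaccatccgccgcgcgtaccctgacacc
Ccnd2: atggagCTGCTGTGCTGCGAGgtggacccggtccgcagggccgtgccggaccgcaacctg
Ccnd3: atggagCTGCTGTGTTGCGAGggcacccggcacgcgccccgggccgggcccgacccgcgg
These bases lie at chr7:144939634-144939693 on the minus strand for Ccnd1, at chr6:127150714-127150773 on the minus strand for Ccnd2 and at chr17:47593655-47593714 on the plus strand for Ccnd3, each within 1 coding exon. The motif takes codons 5 to 9 in Ccnd1 and codons 3 to 7 in Ccnd2 and Ccnd3. Over their coding sequences Ccnd1 and Ccnd2 were identical at 70.4% of aligned bases, Ccnd1 and Ccnd3 at 65.8%, and Ccnd2 and Ccnd3 at 68.8%. No pair shared a word of 31 bases between its transcripts, and the same was true of Cdk4 with Cdk6 (68.8% identical), Cdkn1a with Cdkn1b (62.0%) and Cdkn2c with Cdkn2d (59.7%).

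Low FPKM values rise in steps of whole fragments, and from these steps each library's depth came out at 23668015 to 28897360 fragments per library, and the 10 genes were covered by 123 to 27035 fragments each in a library. Hemgn itself, the disrupted gene, averaged 4.43 ± 1.36 FPKM in WT libraries and 1.09 ± 0.449 FPKM in Hemgn-/- libraries (SD, n = 3), with no overlap. The labels describe lineage-negative Sca-1-positive donor cells and the study's methods LSK cells (lineage-negative, Sca-1-positive, c-Kit-positive). However, transcripts of neutrophils and B cells were far above those of HSPCs (hematopoietic stem and progenitor cells) in every library. A list of 11 HSPC genes, Kit and Ly6a (Sca-1) among them, summed to 36.9 to 42.6 FPKM in WT and 44.5 to 53.6 FPKM in Hemgn-/- libraries. Of 10 tested, 1 was called higher and none lower, with a median log2 fold change of 0.376. The called gene, Cd34, averaged 8.08 ± 0.795 FPKM in WT and 11.4 ± 0.514 FPKM in Hemgn-/- libraries. Ly6a averaged 9.38 ± 1.01 FPKM in WT and 14.7 ± 3.01 FPKM in Hemgn-/- libraries, and Kit 6.58 ± 0.581 FPKM and 5.68 ± 0.206 FPKM, and neither passed the adjustment. The neutrophil and B cell lists gave far larger sums. A list of 7 neutrophil genes summed to 72788.9 to 78348.4 FPKM in WT and 46794.0 to 52406.4 FPKM in Hemgn-/- libraries, with 3 of the 7 lower and none higher. The called genes were Ltf, Camp and Ngp, and Ngp alone averaged 44876.4 FPKM in WT and 27131.8 FPKM in Hemgn-/- libraries. S100a8, S100a9, Lcn2 and Retnlg were not called, and their groups overlapped. The log2 fold change of Retnlg was above 0 (0.10). The 8 B cell genes summed to 1164.9 to 1226.2 FPKM in WT and 1384.3 to 1558.2 FPKM in Hemgn-/- libraries, with 3 of 8 higher. No gene of these lists was at 0 in every library. The samples are therefore called sorted donor cells, and in such bulk samples fewer cells of a type and less RNA per cell cannot be told apart.

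Of the 10 genes, Ccnd1 and Ccnd2 were higher in Hemgn-/- cells with an adjusted p under 0.05, and none was lower (limma with Benjamini-Hochberg adjustment over 13739 genes). Among all genes tested 4.37% were called higher, 2.09% lower and 6.46% in either direction. No overlap between the 3 WT and 3 Hemgn-/- values was seen in 5 of the 10 genes, Ccnd1, Ccnd2 and Cdk4 being higher and Cdkn1a and Ccng2 lower. The same held for 27.4% of all genes tested, 19.2% higher and 8.18% lower. The 5 genes also had an unadjusted p under 0.05 in the limma fit across all genes. The share of all genes tested at this unadjusted threshold was not computed, so this count is not read further. None of the 10 (0 higher and 0 lower) met the study's own criteria in the limma fit used here. These criteria were an unadjusted p below 0.05 together with a 1.5-fold change, here taken on log2(FPKM + 1). From its own transcriptome analysis, the study's Discussion names Cdkn1a among the genes that were decreased without Hemgn. The same Discussion also names Cks1b and Birc5, which are taken up further below. Ccnd1 came closest, with an unadjusted p of 0.00172 from limma and a 1.59-fold ratio of mean FPKM, and missed the 1.5-fold criterion on the log2(FPKM + 1) scale alone. It met both criteria with a pseudocount of 0.1, with TPM and with voom. Of all genes tested 6.83% met them, 4.1% higher and 2.74% lower. The balance of directions over all genes depended on the scaling. As deposited, 563 genes that met them were higher and 376 lower, against 407 and 488 with median-ratio scaling, 406 and 513 with quantile normalization and 779 and 280 with TPM. Of the genes with an adjusted p under 0.05, 67.6% were higher as deposited, 46.9% with median-ratio scaling, 51.5% with quantile normalization and 81.7% with TPM. The median log2 fold change of the 10 genes was 0.062, beside 0.0875 for all genes tested.

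**Figure D1:**
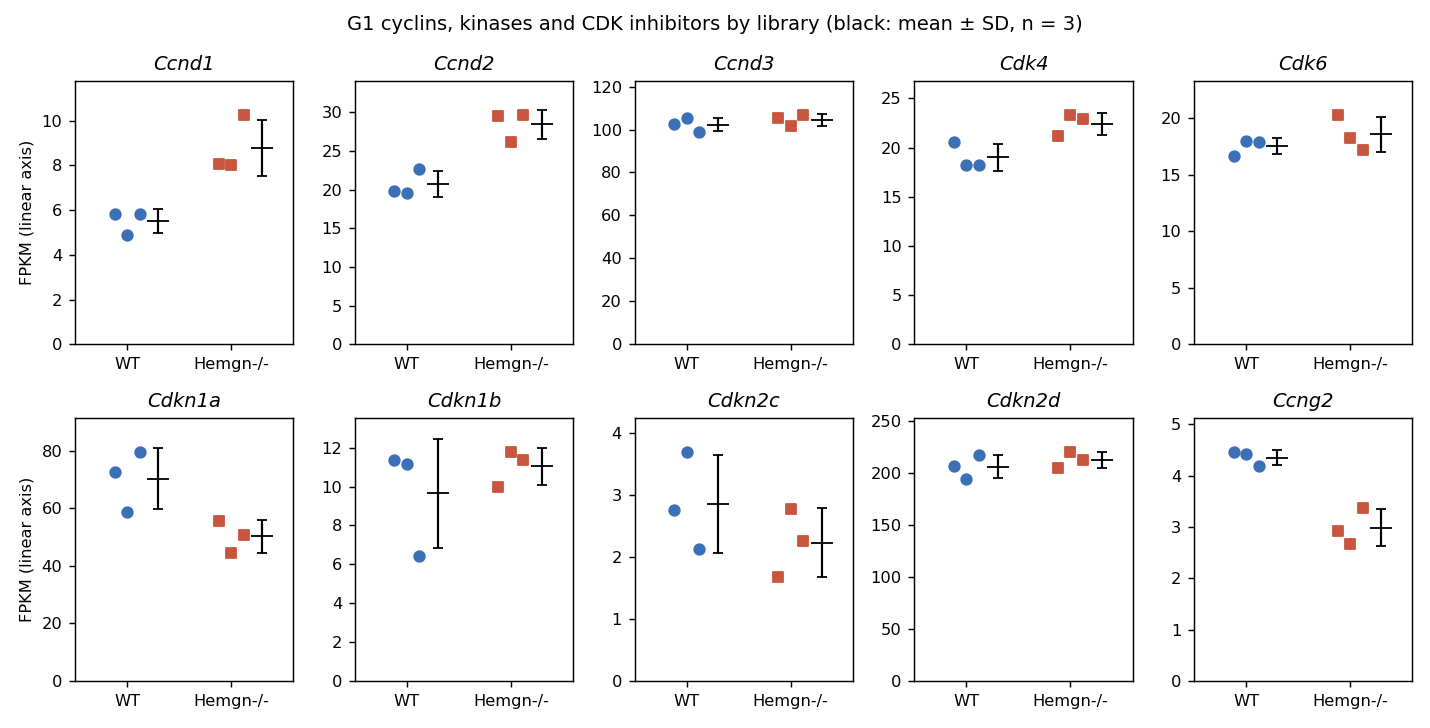
FPKM of each of the 10 genes (vertical axes, linear and starting at 0, a separate scale for each gene) in the 3 WT libraries (blue circles) and the 3 Hemgn-/- libraries (red squares), with the mean ± SD in black. The groups do not overlap for Ccnd1, Ccnd2, Cdk4, Cdkn1a and Ccng2, and they do for the other 5 genes.

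Among the D cyclins, transcripts of Ccnd1 and Ccnd2 were more abundant in Hemgn-/- cells, while those of Ccnd3, by far the most abundant of the 3, overlapped between the groups. Ccnd1 (ENSMUSG00000070348, chr7:144929931-144939925) encodes cyclin D1, the D cyclin best known as a target of growth factor signals. It was at 5.82, 4.90 and 5.83 FPKM in WT replicates 1, 2 and 3 and at 8.07, 8.02 and 10.24 FPKM in Hemgn-/- replicates 1, 2 and 3. Every Hemgn-/- library lay above every WT library. Its mean rose from 5.52 ± 0.533 to 8.78 ± 1.27 FPKM (SD, n = 3), a ratio of means of 1.59. On log2(FPKM + 1), a scale that makes changes of weakly expressed genes look smaller, its log2 fold change was 0.58 (95% interval 0.29 to 0.88, limma, Benjamini-Hochberg adjusted p = 0.0343). The call for Ccnd1 did not survive the loss of any single library, with log2 fold changes of 0.48 to 0.63 and adjusted p-values from 0.0579 without Hemgn-/- replicate 1 to 0.125 without Hemgn-/- replicate 3 (limma). Exons of Ccnd1 also share 1100 bases, 23.4% of their length, with LTO1 on the opposite strand, and counting by strand was not stated, so fragments there cannot be assigned to one gene. LTO1 measured 2.46, 2.66 and 3.4 FPKM in the WT libraries and 3.38, 3.72 and 3.41 FPKM in the Hemgn-/- libraries, where 1 WT value fell between the Hemgn-/- values.

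Ccnd2 (ENSMUSG00000000184, chr6:127125162-127152193) encodes cyclin D2, which lymphocytes and other blood cells induce when they leave quiescence. It was at 19.87, 19.61 and 22.68 FPKM in WT and at 29.48, 26.20 and 29.60 FPKM in Hemgn-/- replicates 1, 2 and 3. The lowest Hemgn-/- library was again above the highest WT library. The mean rose from 20.7 ± 1.7 to 28.4 ± 1.93 FPKM (SD, n = 3), 1.37 times the WT level, with a log2 fold change of 0.44 (95% interval 0.22 to 0.65, limma, Benjamini-Hochberg adjusted p = 0.0303). With 1 library left out the fold change lay between 0.40 and 0.50. The call held without WT replicate 3 (adjusted p = 0.0399) and without Hemgn-/- replicate 2 (adjusted p = 0.0447), and was lost without each of the other 4 libraries, up to an adjusted p of 0.126 without Hemgn-/- replicate 3 (limma). Median-ratio scaling also ended both calls, with an adjusted p of 0.0654 for Ccnd1 and 0.0861 for Ccnd2 (limma), and so did quantile normalization, a fit without the trend and the inclusion of all genes above 0 FPKM.

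Ccnd3 (ENSMUSG00000034165, chr17:47505051-47599691) encodes cyclin D3, which immature lymphocytes need for their expansion. It was at 102.71, 105.18 and 98.97 FPKM in WT and 105.18, 101.54 and 106.62 FPKM in Hemgn-/- libraries. These values overlapped, and the log2 fold change of 0.03 (95% interval -0.11 to 0.17, limma, Benjamini-Hochberg adjusted p = 0.823) turned negative with median-ratio scaling (-0.07) and quantile normalization (-0.02). A pseudogene named Ccnd3-ps exists, so some fragments could come from either.

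Together the D cyclin transcripts summed to 128.4, 129.7 and 127.5 FPKM in WT and to 142.7, 135.8 and 146.5 FPKM in Hemgn-/- libraries, without overlap. Ccnd3 made up 79.6% ± 1.77 of this sum in WT and 73.8% ± 1 in Hemgn-/- libraries (SD, n = 3). The share of Ccnd2 was 16.1% ± 1.45 in WT and 20.1% ± 0.692 in Hemgn-/- libraries, and that of Ccnd1 4.3% ± 0.447 and 6.18% ± 0.712. For each of the 3 shares the groups did not overlap. A ratio within a library does not depend on the scaling between libraries. The ratio of Ccnd2 to Ccnd3 was 0.193, 0.186 and 0.229 in WT and 0.28, 0.258 and 0.278 in Hemgn-/- libraries, a log2 difference of 0.43. All 3 Hemgn-/- ratios exceeded the WT ratios, which gave p = 0.1 in a two-sided exact permutation test, the smallest p that 3 libraries against 3 allow, and 0.267 after Benjamini-Hochberg adjustment over the 4 ratios compared.

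**Figure D2:**
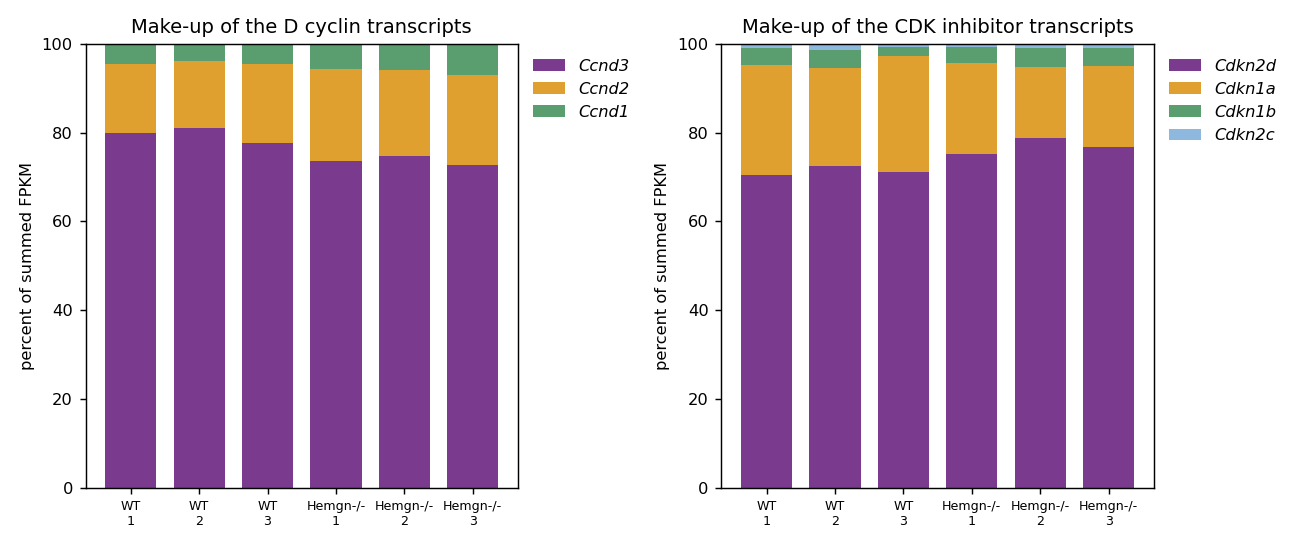
Percent of the summed FPKM of the D cyclins (left) and of the 4 CDK inhibitors (right) that each gene made up in each of the 6 libraries (stacked bars, vertical axes from 0 to 100%). Ccnd3 took 77.6% to 81.1% of the D cyclin sum in WT and 72.8% to 74.8% in Hemgn-/- libraries, and Cdkn1a took 21.9% to 26.1% of the inhibitor sum in WT and 15.9% to 20.4% in Hemgn-/- libraries.

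Neither kinase passed the test after adjustment. Cdk4 (ENSMUSG00000006728, chr10:127063534-127067920) was at 20.55, 18.22 and 18.25 FPKM in WT and 21.15, 23.28 and 22.87 FPKM in Hemgn-/- libraries. The 3 Hemgn-/- values were all higher than the WT values, with means of 19 ± 1.34 and 22.4 ± 1.13 FPKM (SD, n = 3), but the log2 fold change of 0.23 (95% interval 0.02 to 0.43) did not pass the adjustment (limma, Benjamini-Hochberg adjusted p = 0.188). The exons of Cdk4 share 641 bases, 19.7% of their length, with Tspan31 on the opposite strand. Tspan31 was at 9.85, 9.05 and 9.64 FPKM in WT and 11.22, 10.82 and 11.72 FPKM in Hemgn-/- libraries, in both cases without strand information.

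Cdk6 (ENSMUSG00000040274, chr5:3341485-3531008), the partner of D cyclins that is prominent in blood cells, was at 16.69, 17.99 and 17.86 FPKM in WT and 20.25, 18.28 and 17.19 FPKM in Hemgn-/- libraries. The groups overlapped, and the log2 fold change was 0.08 (95% interval -0.14 to 0.29, limma, Benjamini-Hochberg adjusted p = 0.672), -0.02 with median-ratio scaling and -0.01 with quantile normalization. The ratio of Cdk6 to Cdk4 was 0.926 ± 0.0986 in WT and 0.831 ± 0.11 in Hemgn-/- libraries (SD, n = 3, two-sided exact permutation p = 0.2, 0.267 adjusted over the 4 ratios). Summed, both kinases stood at 37.2, 36.2 and 36.1 FPKM in WT and 41.4, 41.6 and 40.1 FPKM in Hemgn-/- libraries.

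Of the Cip/Kip inhibitors, Cdkn1a had lower values in every Hemgn-/- library and Cdkn1b did not. Cdkn1a (ENSMUSG00000023067, chr17:29090976-29100727) encodes p21, the best known cell cycle target of p53. It was at 72.59, 58.69 and 79.53 FPKM in WT and 55.57, 44.34 and 50.75 FPKM in Hemgn-/- libraries. The gap between the groups was narrow, from 55.57 to 58.69 FPKM, beside an SD of 10.6 FPKM in WT and 5.63 FPKM in Hemgn-/- libraries. The ratio of means was 0.715 and the log2 fold change -0.47 (95% interval -0.76 to -0.19), with an adjusted p of 0.0648 that missed the threshold (limma, Benjamini-Hochberg). WT replicate 2 weighed on this value, since without it the fold change was -0.59 and the adjusted p 0.0227 (limma). Median-ratio scaling gave an adjusted p of 0.0365 and the replicate block 0.0308, and without Hemgn-/- replicate 2 it was 0.175 (limma).

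Cdkn1b (ENSMUSG00000003031, chr6:134920401-134925513) encodes p27, which accumulates in resting cells. It was at 11.39, 11.17 and 6.43 FPKM in WT and 9.97, 11.78 and 11.37 FPKM in Hemgn-/- libraries. WT replicate 3 was well below the other 5 libraries, which overlapped. The log2 fold change was 0.21 (95% interval -0.23 to 0.65, limma, Benjamini-Hochberg adjusted p = 0.573), and -0.03 without WT replicate 3. Cdkn1a stood above Cdkn1b 6.37-, 5.26- and 12.4-fold in WT and 5.58-, 3.76- and 4.46-fold in Hemgn-/- libraries. These ratios overlapped, with a log2 difference of -0.72 (two-sided exact permutation p = 0.2, 0.267 adjusted over the 4 ratios) that was -0.35 without WT replicate 3.

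The INK4 inhibitors showed no difference that exceeded the spread between replicates. Cdkn2d (ENSMUSG00000096472, chr9:21288410-21291407), which encodes p19, was the most abundant of the 10 transcripts, at 206.29, 194.65 and 216.80 FPKM in WT and 204.66, 220.10 and 212.78 FPKM in Hemgn-/- libraries. The groups overlapped, and the 95% interval of the log2 fold change of 0.05 ran from -0.10 to 0.20 (limma, Benjamini-Hochberg adjusted p = 0.728). With median-ratio scaling it was -0.06 and with quantile normalization -0.02. Cdkn2c (ENSMUSG00000028551, chr4:109660876-109667189), which encodes p18, an inhibitor known to limit the self-renewal of hematopoietic stem cells, was the least abundant, at 2.75, 3.69 and 2.12 FPKM in WT and 1.67, 2.77 and 2.25 FPKM in Hemgn-/- libraries. Its log2 fold change was -0.25 (95% interval -0.70 to 0.21, limma, Benjamini-Hochberg adjusted p = 0.522), so differences inside this wide interval were not detectable here. The ratio of Cdkn2c to Cdkn2d was 0.014 ± 0.00464 in WT and 0.0105 ± 0.00223 in Hemgn-/- libraries (SD, n = 3, two-sided exact permutation p = 0.4, also 0.4 after adjustment over the 4 ratios). The other INK4 gene tabulated, Cdkn2b, was at 0.11 to 0.65 FPKM and below the filter. No single entry was matched by symbol to Cdkn2a or to the third Cip/Kip gene Cdkn1c, so neither was analysed here.

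The 4 inhibitor transcripts summed to 293.0, 268.2 and 304.9 FPKM in WT and 271.9, 279.0 and 277.2 FPKM in Hemgn-/- libraries, and these sums overlapped. Within them Cdkn1a made up 24.2% ± 2.15 in WT and 18.2% ± 2.28 in Hemgn-/- libraries, and Cdkn2d 71.4% ± 1.11 and 77% ± 1.81 (SD, n = 3), without overlap for either. The ratio of summed D cyclins to summed inhibitors was 0.438, 0.484 and 0.418 in WT and 0.525, 0.487 and 0.528 in Hemgn-/- libraries. The lowest Hemgn-/- ratio, 0.487, was barely above the highest WT ratio, 0.484.

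Ccng2 (ENSMUSG00000029385, chr5:93267257-93276231) encodes cyclin G2, an unconventional cyclin that is known to rise when cells leave the cycle and does not drive CDK4 or CDK6. It was at 4.46, 4.42 and 4.18 FPKM in WT and 2.92, 2.66 and 3.37 FPKM in Hemgn-/- libraries. All WT values were above all Hemgn-/- values, with means of 4.35 ± 0.152 and 2.98 ± 0.358 FPKM (SD, n = 3) and a ratio of means of 0.685. The log2 fold change of -0.43 (95% interval -0.72 to -0.14) did not pass the adjustment (limma, Benjamini-Hochberg adjusted p = 0.0882), and passed it in 1 of 15 alternatives, quantile normalization, with an adjusted p of 0.0486 (limma).

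**Figure D3:**
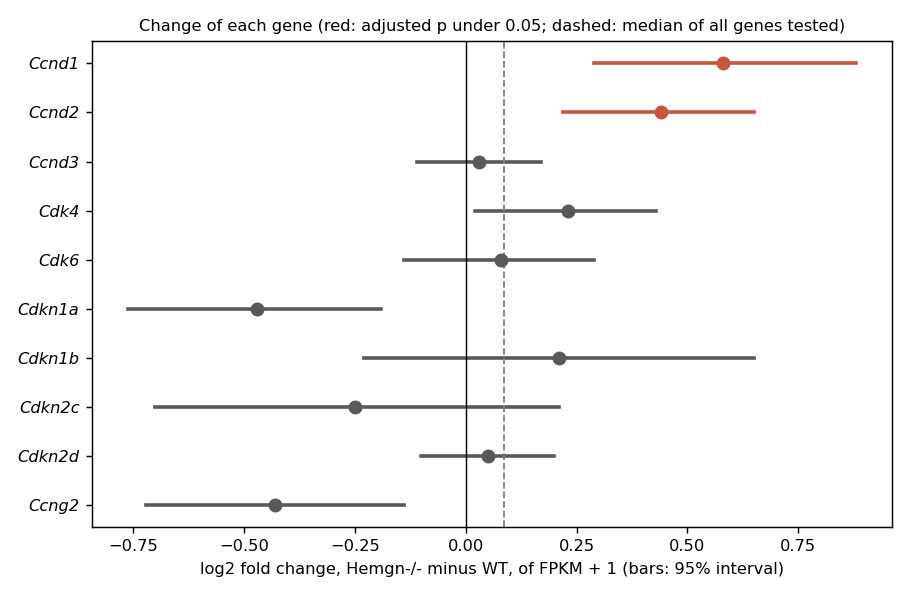
Log2 fold change of FPKM + 1, Hemgn-/- minus WT (horizontal axis), with its 95% interval from limma (bars), for each of the 10 genes. Ccnd1 at 0.58 and Ccnd2 at 0.44 (red) passed an adjusted p under 0.05, the other 8 (grey) did not, and the dashed line marks the median of all genes tested, 0.0875.

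In level, FPKM being per length, the 10 genes ranged from 209.2 FPKM for Cdkn2d to 2.54 FPKM for Cdkn2c as a mean of 6 libraries. Between them came Ccnd3 (103.4 FPKM), Cdkn1a (60.2 FPKM), Ccnd2 (24.6 FPKM), Cdk4 (20.7 FPKM), Cdk6 (18 FPKM), Cdkn1b (10.4 FPKM), Ccnd1 (7.15 FPKM) and Ccng2 (3.67 FPKM). The ranges over libraries overlapped for the neighbours Ccnd2 and Cdk4, Cdk4 and Cdk6, Cdkn1b and Ccnd1, and Ccng2 and Cdkn2c, but within libraries Cdk4 was above Cdk6 and Cdkn1b above Ccnd1 in 6 of 6, and Ccnd2 above Cdk4 and Ccng2 above Cdkn2c in 5 of 6. Cdkn2d was above 98.6% and Ccnd3 above 96.9% of the genes tested in mean FPKM, while Ccng2 was above 46.2% and Cdkn2c above 37.0%. In WT and Hemgn-/- cells alike, the most abundant D cyclin transcript was Ccnd3 and the most abundant inhibitor transcript was Cdkn2d.

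Around these 10 genes, 104 further genes of the G1 pathway and of the later cell cycle were tested, of which 4 were higher and 9 lower in Hemgn-/- cells at an adjusted p under 0.05. Their median log2 fold change was 0.00732, beside 0.0875 over all genes tested. None of 9 genes of the pocket proteins and the DREAM complex was called. Nor was any of 8 genes of cyclin E, cyclin A, CDK2 and the CDK-activating kinase, nor any of 9 genes of D cyclin and p27 turnover. Over all genes tested 6.46% were called in either direction, so the lack of calls in lists this short says little. In these lists Ccna2, Cdk2, Cdc25a, Cks1b and Gsk3b had lower values in every Hemgn-/- library, and Cdk7 and Fbxw7 higher ones. Groups without overlap were seen for 27.4% of all genes tested. Rb1, the substrate of cyclin D with CDK4 or CDK6, averaged 3.28 ± 0.592 FPKM in WT libraries and 2.85 ± 0.826 FPKM in Hemgn-/- libraries (SD, n = 3, log2 fold change -0.17, 95% interval -0.61 to 0.27). Cdk2 averaged 22.3 ± 0.686 FPKM in WT libraries and 19.4 ± 0.172 FPKM in Hemgn-/- libraries without overlap, with a log2 fold change of -0.19 that did not pass the adjustment (limma, Benjamini-Hochberg adjusted p = 0.21). Rb1 and Cdk2 were picked as the direct neighbours of the D cyclin kinases after their values were seen.

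Among 9 E2F and DP factors 1 was called higher and none lower. Fold changes were above 0 for 3 and below 0 for 6, with a median of -0.203, beside 0.0875 over all genes tested. E2f7, E2f8 and Tfdp1 had lower values in every Hemgn-/- library, as did 8.18% of all genes tested. Their log2 fold changes of -0.39, -0.62 and -0.34 did not pass the adjustment. They were named after their values were seen. E2f5, one of the repressor E2Fs that work with pocket proteins, was at 2.37, 2.21 and 1.80 FPKM in WT and 6.99, 3.79 and 4.84 FPKM in Hemgn-/- libraries. All Hemgn-/- values were higher, with a log2 fold change of 0.96 (95% interval 0.52 to 1.41, limma, Benjamini-Hochberg adjusted p = 0.0237). With 1 library left out, at log2 fold changes of 0.76 to 1.13, this call held only without Hemgn-/- replicate 2 (adjusted p = 0.0223), and the adjusted p was at most 0.0815, without WT replicate 3 (limma).

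Of 15 upstream regulators tested 1 rose and none fell. Fold changes were above 0 for 13 of the 15, beside 8653 of 13739 over all genes tested. Myc, a transcription factor known to induce Ccnd2 and Cdk4 and to repress Cdkn1a, was at 49.56, 47.57 and 53.59 FPKM in WT and 72.17, 68.76 and 69.59 FPKM in Hemgn-/- libraries. Its groups were well apart, with a log2 fold change of 0.48 (95% interval 0.31 to 0.64, limma, Benjamini-Hochberg adjusted p = 0.00766). Myc was called in 14 of 15 alternatives, the exception being a fit without the trend (adjusted p = 0.0609, limma). Whether Myc had a part in the values of Ccnd2, Cdk4 or Cdkn1a was not tested. The part of the differing cell types in the Myc values was not tested either.

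Of 15 p53 targets and 10 FoxO targets, 1 gene, which is in both lists, was called higher and none lower. Sesn1, which encodes a sestrin that restrains growth signalling under stress, was at 22.66, 20.03 and 17.80 FPKM in WT and 28.74, 28.65 and 28.10 FPKM in Hemgn-/- libraries (log2 fold change 0.49, 95% interval 0.26 to 0.71, limma, Benjamini-Hochberg adjusted p = 0.0247). It was higher in the libraries in which the p53 target Cdkn1a had lower values. Sesn2, Aen and Btg2 of the p53 list also had higher values in every Hemgn-/- library. Bax, Ccng1 and Gadd45a had lower ones, as Cdkn1a did. None of these genes passed the adjustment, and 27.4% of all genes tested had no overlap in either direction. Fold changes in the p53 list were above 0 for 8 genes and below 0 for 7. With 1 library left out, the call for Sesn1 held only without WT replicate 1 (adjusted p = 0.0279), and without Hemgn-/- replicate 3 the adjusted p was 0.0895 (limma). Median-ratio scaling and quantile normalization ended it as well.

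Of 10 genes linked to stem cell quiescence 1 rose and none fell. Egr1, an immediate early transcription factor that also keeps stem cells in the niche, was at 129.82, 134.82 and 133.88 FPKM in WT and 244.66, 246.35 and 239.31 FPKM in Hemgn-/- libraries. The groups were far apart beside their spread (log2 fold change 0.87, 95% interval 0.74 to 1.00), and the call held in 15 of 15 alternatives (limma).

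Of the later cell cycle genes, those of G2/M were lower as a group and those of S phase were not. Of 12 S phase genes 1 fell and none rose, with 6 fold changes above 0, 6 below and a median of 0.0217. Pcna, Mcm2 and Mcm6 had higher values in every Hemgn-/- library without passing the adjustment, with log2 fold changes of 0.30, 0.21 and 0.17. Tyms had lower values in every Hemgn-/- library, also without passing it (-0.20). Of all genes tested 19.2% were higher and 8.18% lower without overlap. These genes were named after their values were seen. Rrm2, the gene called lower, encodes the regulated subunit of ribonucleotide reductase. It was at 9.62, 9.63 and 10.42 FPKM in WT and 5.14, 5.64 and 7.04 FPKM in Hemgn-/- libraries (log2 fold change -0.66, limma, Benjamini-Hochberg adjusted p = 0.0188). This call for Rrm2 held without WT replicate 2 or Hemgn-/- replicate 3 and was lost without each of the other 4 libraries, up to an adjusted p of 0.0687 without WT replicate 3 (limma). Of 12 G2/M genes 8 fell, none rose, and all 12 had fold changes below 0, with a median of -0.583. The 3 that changed most were Cdc20, an activator of the anaphase-promoting complex, Birc5, a subunit of the chromosomal passenger complex, and Ccnb1, the mitotic cyclin B1. Cdc20 was at 74.57, 68.32 and 69.28 FPKM in WT and 36.27, 33.85 and 38.79 FPKM in Hemgn-/- libraries. Birc5 went from 25.7 ± 1.5 to 13.6 ± 2.71 FPKM and Ccnb1 from 18 ± 1.29 to 9.42 ± 0.839 FPKM (SD, n = 3). All 3 were called lower in each of 15 alternatives (limma), so that in the same libraries Ccnd1 and Ccnd2 had higher and these mitotic genes lower values.

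**Figure D4:**
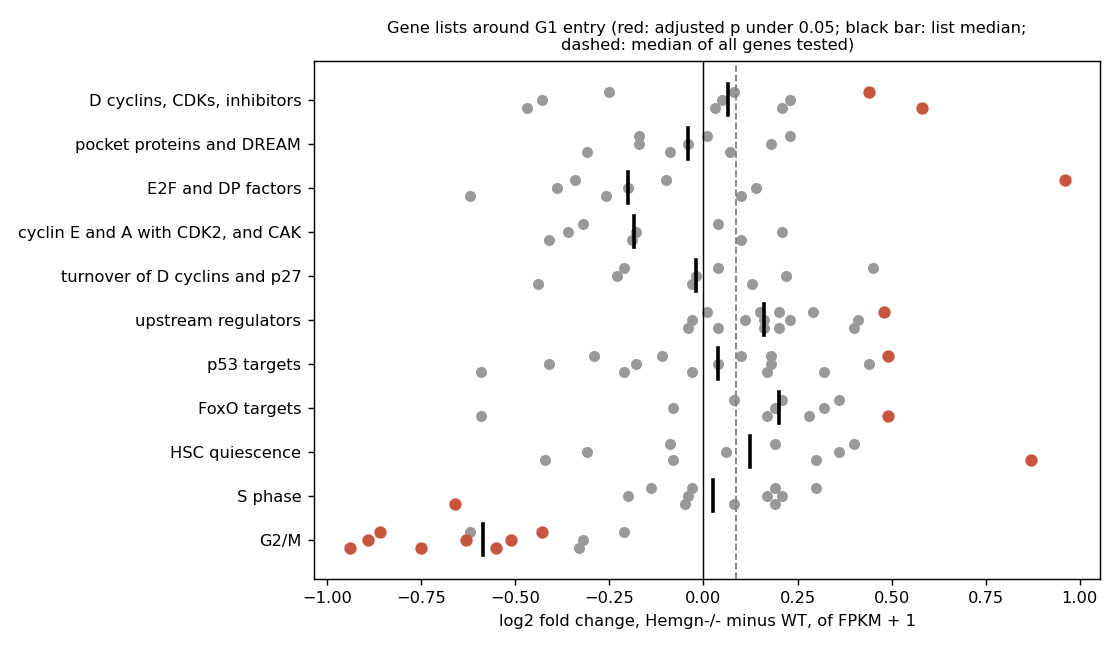
Log2 fold change of FPKM + 1, Hemgn-/- minus WT (horizontal axis), of every tested gene (points) in the 10 genes of G1 entry and in 10 lists around them, with genes at an adjusted p under 0.05 in red, list medians as black bars and the median of all genes tested, 0.0875, as a dashed line. Of the 12 G2/M genes 8 are red and all lie below 0, and Ccnd1 and Ccnd2 are the red points of the top row.

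Transcripts of mature blood cells moved along with these differences. Erythroid, granulocyte precursor and eosinophil genes were lower in Hemgn-/- libraries, in addition to the neutrophil genes given above. The 9 erythroid genes summed to 491.0 to 576.2 FPKM in WT and 60.8 to 80.6 FPKM in Hemgn-/- libraries, with 4 of 8 tested lower. The 4 genes of granulocyte precursors summed to 671.9 to 721.2 FPKM in WT and 476.3 to 520.2 FPKM in Hemgn-/- libraries, with 2 of 4 lower. The 8 eosinophil and basophil genes summed to 718.4 to 829.9 FPKM in WT and 557.3 to 584.8 FPKM in Hemgn-/- libraries, with 3 of 8 lower. All 3 were eosinophil granule genes, Epx, Prg2 and Prg3, with log2 fold changes of -2.72, -1.99 and -1.51. The basophil and mast cell genes Cpa3 (0.27), Ms4a2 (0.45), Prss34 (0.06) and Mcpt8 (-0.10) did not pass the test in either direction. Lymphoid and dendritic cell genes had higher sums in Hemgn-/- libraries, as the B cell list did. The 7 genes of plasmacytoid dendritic cells summed to 240.0 to 279.1 FPKM in WT and 370.2 to 437.7 FPKM in Hemgn-/- libraries, with 4 of 7 higher. The 8 T and NK cell genes summed to 106.5 to 117.9 FPKM in WT and 125.1 to 148.2 FPKM in Hemgn-/- libraries, with 2 of 8 higher. The 8 macrophage and monocyte genes had calls in both directions, Csf1r and Adgre1 being higher and C1qb lower, and overlapped in sum between the groups, at 326.9 to 355.3 FPKM in WT and 325.9 to 352.4 FPKM in Hemgn-/- libraries. The 6 endothelial genes, none of 4 tested called, summed to 16.3 to 17.3 FPKM in WT and 17.4 to 21.1 FPKM in Hemgn-/- libraries. The part of these cell types in the values of the 10 genes and of the lists around them, G2/M included, was not tested.

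The genes whose profiles over the 6 libraries were most like those of the called cyclins were found by the root-mean-square difference of log2(FPKM + 1), each centred on its own mean. For Ccnd2 these were Dusp1, an immediate early phosphatase of MAP kinases (difference 0.0309, means of 696.0 FPKM in WT and 956.4 FPKM in Hemgn-/- libraries), Gsap (0.0394) and Mars (0.0431). For Ccnd1 they were H2-T24 (0.0422, means of 26.4 FPKM and 40 FPKM), Tbc1d14 (0.0523) and B3galt4 (0.0541). With 13739 genes and 6 libraries, such likeness is a description of these libraries alone.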

How the data were processed

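RNA-seq was performed by the authors on donor cells from 3 WT and 3 Hemgn-/- transplants. The labels and the study's methods differ on the sorted gate, the injection route and the library kit. The authors deposited FPKM values, 1 column per library, made from whole fragments per gene. Whole fragments, to within 0.05, were recovered in all libraries for 95.7% of the genes that never exceeded 100 fragments. The submitters' processing notes name GRCm38, Bowtie2 2.2.3, HISAT2 2.1.0, TopHat2 and HTSeq 0.6.0. Counts of fragments from amplified cDNA are not independent molecules. All value columns were mapped to samples (0 unmapped). Symbols came from GENCODE M21 (GRCm38), which 44 of 24965 genes did not match.

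Genes above 1 FPKM in at least 1 library (13739) were compared as log2(FPKM + 1) with limma 3.58.1 in R 4.3.3 (lmFit, eBayes with a trend), Hemgn-/- minus WT, without covariates. P-values are two-sided and were adjusted by Benjamini-Hochberg over all genes tested. The study calls the libraries biological replicates. The 4 ratios of related genes were compared by exact permutation tests. Sums, shares and ratios were computed in Python 3.11.15. The fit was tested on simulated data. The members and lists were chosen with earlier results of these data known. Named genes were Hemgn, the 10 genes, up to 3 called genes without overlap of largest change per list, and the 3 nearest profiles of the 2 cyclins of smallest p. As alternatives, all genes above 0 FPKM or those with a mean FPKM of at least 1 were fitted, the pseudocount was set to 0.1, libraries were rescaled by median ratios, to 1 total (TPM) or by quantiles, the trend was dropped, replicate numbers were used as a block, and each library was left out. Limma's voom on recovered fragments was added after seeing the data.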

Additional observations from a re-analysis of the deposited data

How the results depend on the processing

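Ccnd1 and Ccnd2 stayed above 0, and Cdkn1a and Ccng2 below 0, under all 15 alternatives to the deposited values, but their calls depended on the setting. The 2 genes called higher became 0 with all genes above 0 FPKM, median-ratio scaling, quantile normalization and eBayes without a trend, and 0 to 1 with 1 library left out. The 0 called lower became 1 with median-ratio scaling (Cdkn1a), quantile normalization (Ccng2), the replicate block (Cdkn1a) and voom (Cdkn1a), and 0 to 1 with 1 library left out. At the study's thresholds the 0 higher genes became 1, Ccnd1, with a pseudocount of 0.1, TPM and voom, and 0 to 1 with 1 library left out, and the 0 lower genes became 0 to 1 with 1 library left out. Fold changes turned negative for Ccnd3 (-0.07 and -0.02), Cdk6 (-0.02 and -0.01) and Cdkn2d (-0.06 and -0.02) with median-ratio scaling and quantile normalization respectively, and for Cdkn1b (-0.03) without WT replicate 3, the range with 1 library left out being -0.03 to 0.34. The cause was not tested. Of all genes tested, 600 were higher, against 309 with all genes above 0 FPKM, 341 with median-ratio scaling, 1062 with TPM, 368 with quantile normalization, 237 without a trend and 223 to 451 with 1 library left out. The 287 lower became 157 with all genes above 0 FPKM, 153 without a trend and 150 to 237 with 1 library left out. At the study's thresholds 563 genes were higher and 376 lower, against 909 and 501 with voom, 779 and 280 with TPM, 407 and 488 with median-ratio scaling, and 406 and 513 with quantile normalization. The percentage of called genes that were higher was 67.6%, against 46.9% with median-ratio scaling, 81.7% with TPM and 51.5% with quantile normalization. In the lists around the 10 genes, the 4 higher became 2 with all genes above 0 FPKM, 11 with TPM, 1 without a trend, 7 with voom and 2 to 3 with 1 library left out, and the 9 lower became 5 without a trend and 5 to 8 with 1 library left out. Same-numbered libraries deviated together with correlations of only -0.0428 to 0.0111, and differently numbered ones with -0.0291 to 0.0365. No shared deviation by number was seen, but this cannot tell whether same-numbered libraries were handled together. The replicate block left 410 genes higher and 226 lower, 2 of the 10 genes higher and 1 lower, and 4 list genes higher and 8 lower. The log2 differences of the ratios kept their direction but moved with 1 library left out, from -0.97 (without WT replicate 2) to -0.35 (without WT replicate 3) for Cdkn1a to Cdkn1b, -0.63 (without WT replicate 3) to -0.15 (without WT replicate 2) for Cdkn2c to Cdkn2d, -0.26 (without Hemgn-/- replicate 1) to -0.09 (without Hemgn-/- replicate 3) for Cdk6 to Cdk4, and 0.37 to 0.52 for Ccnd2 to Ccnd3.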
